A study of Mus musculus with 6 samples.

Results

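The genes described here encode the actin-binding Xin-repeat protein Xirp2, the filamins Flnc and Flna, the filamin partners Synpo2 and Synpo2l, the kyphoscoliosis peptidase Ky, its binding protein Igfn1 and the Xin partner Pgm5, which meet at the Z-disc and the membrane attachments of the muscle fibre. The set was defined by 9 gene symbols, and it was drawn up with differences between the genotypes already known. Of the 9, 8 were paired with a probe, through 19 of the 45281 probes on the array. Xirp1, the founding Xin protein, was paired with none and is not analysed here. Total RNA came from the quadriceps, in the thigh, of newborn C57BL/6 mice (age 0 days) and was measured on Illumina bead arrays, with 1 array per mouse. Muscle from 3 Klhl40 knockout mice (KO) was compared with muscle from 3 wild-type mice (WT), and each KO mouse was killed together with a WT littermate. The labels do not say which arrays are littermates, so arrays of the same replicate number were taken as the pairs. Klhl40 encodes a muscle kelch protein that stabilises thin-filament proteins. The labels give the knockout by its genotype alone, with no Cre line or tissue restriction. Whole muscle also holds vessels, connective tissue and nerve.

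Filamins crosslink actin filaments into networks, and filamin C is the muscle form, placed at the Z-disc and beneath the fibre membrane. Xin-repeat proteins bundle actin, and Xirp1 docks on filamin C. Synpo2 links filamin to alpha-actinin and to the chaperone-assisted autophagy that clears damaged filamin. In mice, loss of Ky, which carries a transglutaminase-like domain, causes muscle degeneration with a curved spine. Human mutations of the filamin C gene cause myofibrillar myopathy and cardiomyopathy.

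Xirp2 rose 2.37-fold in KO, whereas the Ky level was 2.17-fold lower, so that the genes of this network did not shift in 1 direction. Synpo2, Flnc and Synpo2l had higher means in KO, by 1.83-fold, 1.42-fold and 1.33-fold, and every KO value lay above every WT value. Flna, Igfn1 and Pgm5 overlapped between the groups. Of the 8 genes tested, limma called 1 higher (Xirp2) and 0 lower at an adjusted p under 0.05, where it called 0.111% of all 13455 genes higher and 0.0372% lower (0.149% in all). With the littermate pair as a block these calls were instead 0 higher and 1 lower: the limma adjusted p went from 0.0324 to 0.0603 for Xirp2 and from 0.0762 to 0.0287 for Ky. At an unadjusted limma p under 0.05 these were 4 and 1, with 3.89% of all genes past it with a higher and 3.37% with a lower mean in KO (7.27% together). All KO values lay above all WT values for 4 of the 8 genes and below them for 1, which held for 6.93% and 6.42% of all genes (13.3% together). Of the 11 detected probes of the set 1 was called, and of all 19099 detected probes 0.152%. The 8 genes had a median difference of 0.27 on the log2 scale, against -0.002 over all genes tested. Since the set was chosen with this contrast known, these counts and the p-values below only place the genes in the fit over all genes.

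Each array detected between 18373 and 19189 probes at a detection p under 0.05. Klhl40 itself gave scanner intensities of 1637.5, 1863.9 and 1857.9 on the WT arrays and 117.7, 139.0 and 108.3 on the KO arrays, which matches the labels. Fibre markers were bright in both groups: over 7 tested of 8, among them skeletal actin, muscle creatine kinase and desmin, the summed scanner intensity was 170243 to 174536 in WT and 170299 to 175141 in KO. By limma 0 of the 7 passed. Without adjustment 1, desmin, had a p under 0.05, with a mean 0.25 higher in KO on the log2 scale, against 3.89% of all genes. For 2 of the 7, Des and Actn2, all KO values lay above all WT values, against 6.93% of all genes. After normalisation the marker Myh8 had 15.23 on every array, so it could show no difference. Tnnc2 had 14.93, 14.86 and 14.86 in either group, and Acta1 and Actn2 had some values in common. Quantile normalisation gives every array the same set of values, so the brightest markers had little room to differ. This limits what the 0 of 7 can show. WT 3 stood apart on the first principal component, at 32.3 against -14.6 to 8.3 on the other arrays. Values without it are given beside the results of the member genes, and not for the lists of related genes and markers. Of the 19 probes, 11 passed the filter, which asked for a detection p under 0.05 on at least 3 of the 6 arrays. The 8 that failed lay between 95.2 and 113.2 in scanner intensity, with a detection p of 0.105 or more on every array, and were 2 each for Xirp2 and Ky and 1 each for Flnc, Flna, Synpo2 and Pgm5. No fold is given for them, and the sources used here do not say where each probe lies in its transcript. Levels below are log2 normalised intensities, differences are KO minus WT on that scale, and levels of different probes cannot be set against each other.

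The promoter windows shown are those of the 3 members that held a match to a muscle motif, the MEF2 consensus, and that of Ky, which held none. They were picked by the match, so the choice says nothing of how the match goes with the difference between genotypes, and Flnc, which also lay higher in KO, held none. Each is the RefSeq window (assembly GRCm38.p6) from 250 bases before to 50 bases after an annotated start, written in the direction of transcription. Capitals mark a match to the MEF2 consensus, the site of a transcription factor family of striated muscle, searched on both strands. The Xirp2 window lies at chr2:67445752-67446051, plus strand. The Synpo2 window lies at chr3:123236100-123236399, minus strand. Synpo2l has 2 annotated starts, with windows at chr14:20668305-20668604, minus strand, and at chr14:20664525-20664824, minus strand. The Ky window lies at chr9:102505888-102506187, plus strand.
Xirp2: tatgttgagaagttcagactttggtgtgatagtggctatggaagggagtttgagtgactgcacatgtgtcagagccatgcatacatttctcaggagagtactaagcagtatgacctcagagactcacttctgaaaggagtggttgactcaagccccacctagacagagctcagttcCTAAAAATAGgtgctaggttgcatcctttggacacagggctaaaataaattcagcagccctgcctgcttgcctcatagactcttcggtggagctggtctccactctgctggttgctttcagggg
Synpo2: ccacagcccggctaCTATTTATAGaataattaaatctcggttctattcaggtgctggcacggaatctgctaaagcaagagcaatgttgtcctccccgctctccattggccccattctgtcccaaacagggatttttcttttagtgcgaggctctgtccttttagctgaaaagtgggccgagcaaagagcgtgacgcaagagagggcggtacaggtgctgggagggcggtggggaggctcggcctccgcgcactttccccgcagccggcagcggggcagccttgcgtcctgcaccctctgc
Synpo2l start 1: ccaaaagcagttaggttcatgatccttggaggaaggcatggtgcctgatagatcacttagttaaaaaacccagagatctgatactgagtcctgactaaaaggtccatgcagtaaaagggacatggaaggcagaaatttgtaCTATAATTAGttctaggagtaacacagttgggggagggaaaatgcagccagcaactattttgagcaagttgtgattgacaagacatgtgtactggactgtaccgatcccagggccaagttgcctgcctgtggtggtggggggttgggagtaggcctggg
Synpo2l start 2: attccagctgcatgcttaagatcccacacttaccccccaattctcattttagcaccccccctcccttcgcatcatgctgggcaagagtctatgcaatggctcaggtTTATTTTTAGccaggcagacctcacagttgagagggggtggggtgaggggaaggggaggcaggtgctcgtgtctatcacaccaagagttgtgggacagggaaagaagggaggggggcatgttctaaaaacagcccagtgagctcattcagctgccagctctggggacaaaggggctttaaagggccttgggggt
Ky: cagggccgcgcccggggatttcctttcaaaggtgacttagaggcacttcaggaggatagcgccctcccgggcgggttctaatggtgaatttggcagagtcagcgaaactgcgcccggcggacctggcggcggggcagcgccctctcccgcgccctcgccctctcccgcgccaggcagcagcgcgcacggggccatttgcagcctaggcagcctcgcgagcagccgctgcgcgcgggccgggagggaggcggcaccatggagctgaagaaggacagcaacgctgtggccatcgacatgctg

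The 8 genes had 10 promoter windows, and 4 of the windows, those of Xirp2, Synpo2 and both starts of Synpo2l, held a MEF2 match. Of all 32851 windows, 3.19% held one. The match was CTAAAAATAG at -74 to -65 from the start of Xirp2, CTATTTATAG at -236 to -227 in Synpo2, CTATAATTAG at -109 to -100 at the first start of Synpo2l and TTATTTTTAG at -144 to -135 at the second. The window of Ky and those of Flnc, Flna, Igfn1 and Pgm5 held no such letters. The CArG box of serum response factor matched in 0 of the 10 windows and in 1.63% of all windows. The MCAT motif, CATTCC on either strand, was found in 3 of the 10 windows, both of Flnc and that of Flna, and in 14.7% of all. The Flnc windows overlap, and their match is the same genomic site, counted in both. The E-box, CANNTG, was found in 7 of the 10, in all but the Flnc and Flna windows, and in 72.3% of all. No MEF2 match overlapped an E-box or MCAT match, and the pair of E-boxes in the Xirp2 window overlap each other. These matches describe the letters of the windows and were not tested as binding sites.

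Xirp2 is an actin-binding protein of the Z-disc, the fibre ends and, in heart, the intercalated disc. Its detected probe gave scanner intensities of 642.4, 600.7 and 575.3 in WT and 1178.5, 1144.8 and 1549.2 in KO. All KO arrays lay above all WT arrays, with KO 3 the highest and WT 3 the lowest. On the log2 scale WT averaged 8.98 ± 0.16 and KO 10.23 ± 0.22 (SD, n = 3 in either group), which is a gap of 1.24 with an SE of 0.14 (limma adjusted p = 0.0324 over all genes). It ranked 15 from the highest difference among the 13455 genes. The 3 littermate pairs differed by 0.95, 1.13 and 1.66. With the littermate pair as a block, under which limma called 0.193% of all genes, the adjusted p was 0.0603 over genes, whereas over the 19099 detected probes it was 0.0349 without the block and 0.0468 with it. Without WT 3 the difference was 1.16 (limma adjusted p = 0.0471). Leaving out any 1 of the other 5 arrays ended the call, with differences of 1.12 to 1.32 and a limma adjusted p of 0.106 to 0.169. The other 2 Xirp2 probes, of the same transcript accession, were not detected on any array.

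**Figure D1:**
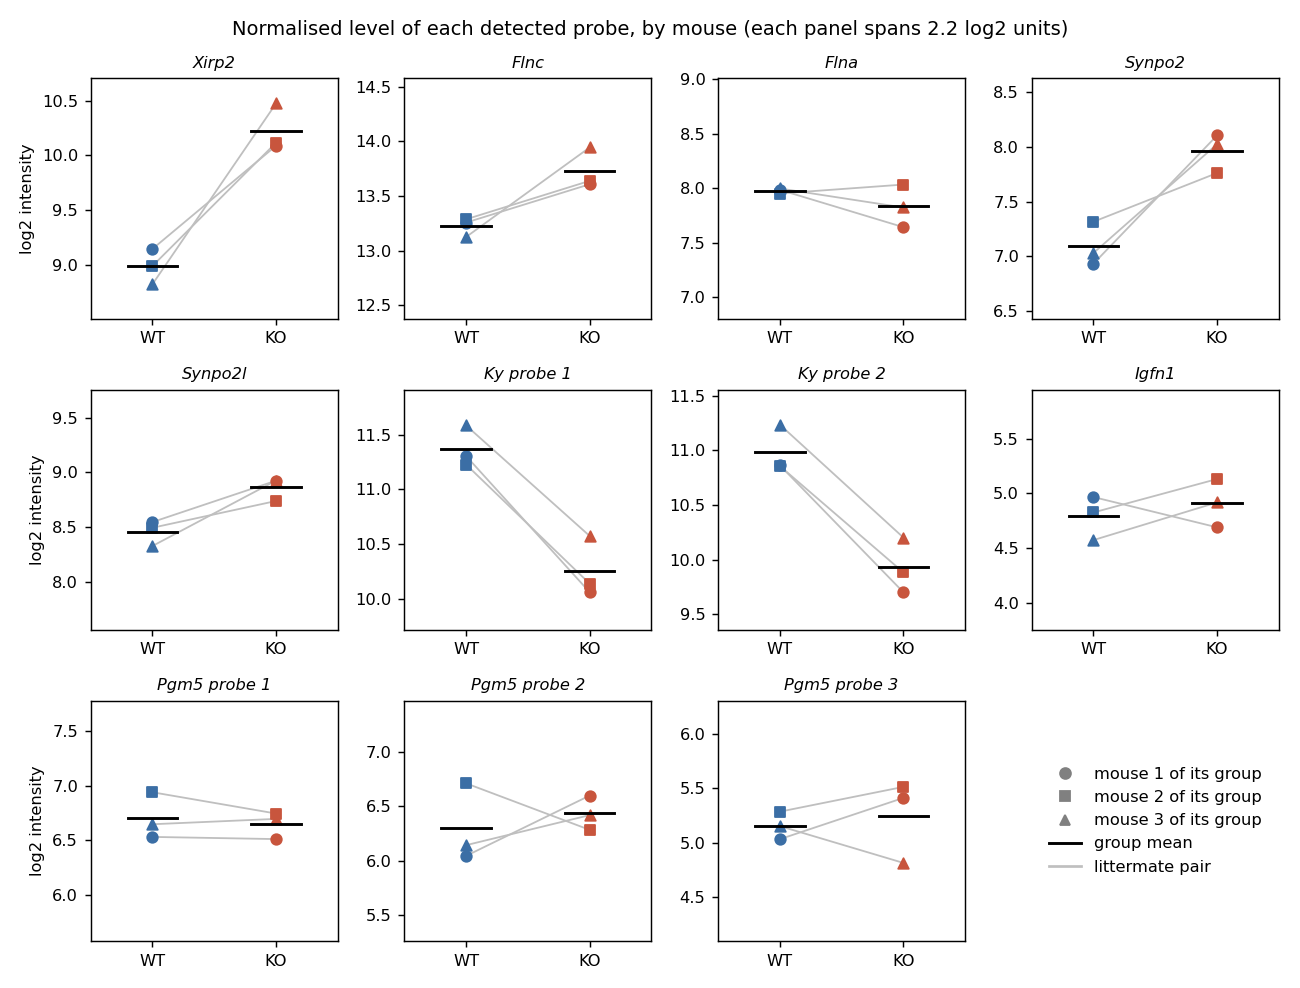
Log2 normalised intensity (vertical axes, each spanning the same range) of the 11 detected probes in WT (blue) and KO (red). Points are mice, bars are group means, and grey lines join mice of the same replicate number, taken as littermates. All 3 lines go up for Xirp2, Flnc, Synpo2 and Synpo2l and down for both Ky probes, and for Flna, Igfn1 and each Pgm5 probe some go up and some down.

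Flnc encodes the muscle filamin. Its detected probe was among the brightest on the array, above 99.6% of the probes, with scanner intensities of 9853.4, 10411.4 and 8865.6 in WT and 13114.3, 12633.7 and 15889.8 in KO. The groups did not overlap, and again KO 3 was the highest and WT 3 the lowest. The WT mice averaged 13.22 ± 0.09 on the log2 scale and the KO mice 13.73 ± 0.19 (SD, n = 3 in either group). KO minus WT came to 0.51 with an SE of 0.12 (limma adjusted p = 0.321). The littermate pairs differed by 0.35, 0.35 and 0.82. Without WT 3 the difference was 0.46. The second Flnc probe, of the same accession, was detected on no array.

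Flna encodes the filamin of most other cells, which links actin to membrane receptors, and its gene lies on the X chromosome. Its probe gave 337.9, 337.7 and 366.2 in WT and 284.7, 333.3 and 325.1 in KO on the scanner's scale. After normalisation KO 2, at 8.03, lay above all WT arrays, which were close together at 7.98 ± 0.02, and KO 1 and KO 3 lay below them. The KO mean was 7.83 ± 0.20 (SD, n = 3), and KO minus WT was -0.14 with an SE of 0.12 (limma adjusted p = 0.896). Without WT 3 it was -0.13. Whether Flna and Flnc differ in their change was not tested.

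Synpo2, also called myopodin, binds filamin and alpha-actinin. Its detected probe gave 208.3, 247.8 and 231.3 in WT and 360.4, 290.6 and 360.0 in KO on the scanner's scale. Every KO array lay above every WT array, and the narrowest gap was between KO 2 and WT 2. Log2 levels averaged 7.09 ± 0.20 in WT against 7.96 ± 0.18 in KO (SD, n = 3 in either group), 0.87 apart with an SE of 0.14 (limma adjusted p = 0.102). The littermate pairs differed by 1.18, 0.45 and 1.00, and without WT 3 the difference was 0.84. With background correction and its offset both left out the difference was 0.585. The ratio of mean scanner intensities, with no correction, normalisation or offset, was 1.47, against a fold of 1.83 from the log2 levels. The second probe of the gene was not detected.

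Synpo2l, also called CHAP, is a relative of Synpo2 at the Z-disc of heart and skeletal muscle. Its single probe gave 453.3, 449.1 and 437.6 in WT and 569.2, 487.0 and 591.4 in KO on the scanner's scale. The groups did not overlap, and as for Synpo2 the lowest KO array was KO 2. Log2 levels averaged 8.46 ± 0.11 in WT against 8.86 ± 0.11 in KO (SD, n = 3 in either group), 0.41 apart with an SE of 0.11 (limma adjusted p = 0.391). Without WT 3 it was 0.34.

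**Figure D2:**
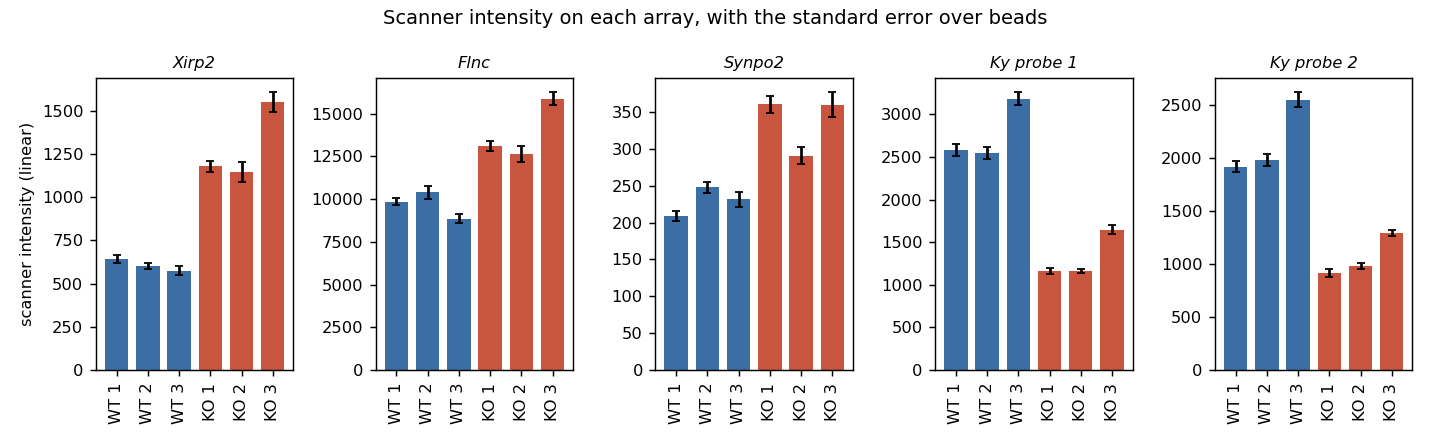
Scanner intensity on a linear scale (vertical axes, from 0) on each of the 6 arrays, with error bars for the standard error over the beads of the probe. The Xirp2, Flnc and Synpo2 bars of all KO arrays (red) are taller than those of all WT arrays (blue), and for both Ky probes they are shorter.

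Ky encodes a muscle protein that binds filamin C and Igfn1 at the Z-disc. Its brighter probe gave scanner intensities of 2578.2, 2547.2 and 3183.4 in WT and 1162.1, 1161.2 and 1645.4 in KO. All KO arrays lay below all WT arrays, and the third mouse was the highest in each group. The WT mice averaged 11.37 ± 0.19 on the log2 scale and the KO mice 10.26 ± 0.28 (SD, n = 3 in either group). KO minus WT came to -1.12 with an SE of 0.16 (limma adjusted p = 0.0762 over genes). It ranked 15 from the lowest difference among the 13455 genes. With the littermate pair as a block the limma adjusted p was 0.0287, so that the block brought Ky past the threshold. The pairs differed by -1.25, -1.09 and -1.01.

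A second Ky probe was detected on all 6 arrays, at 1920.0, 1979.6 and 2550.7 in WT and 917.7, 981.2 and 1295.7 in KO. It showed the same order, with the third mouse highest in each group. Its difference was -1.06 (SE 0.16, limma adjusted p = 0.0842 over the detected probes, and 0.0238 with the littermate block). Without WT 3 the differences of the probes were -1.01 and -0.93. The remaining 2 Ky probes were not detected. WT 3 and KO 3 were thus high in Ky, while WT 3 was low and KO 3 high in Xirp2 and Flnc.

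**Figure D3:**
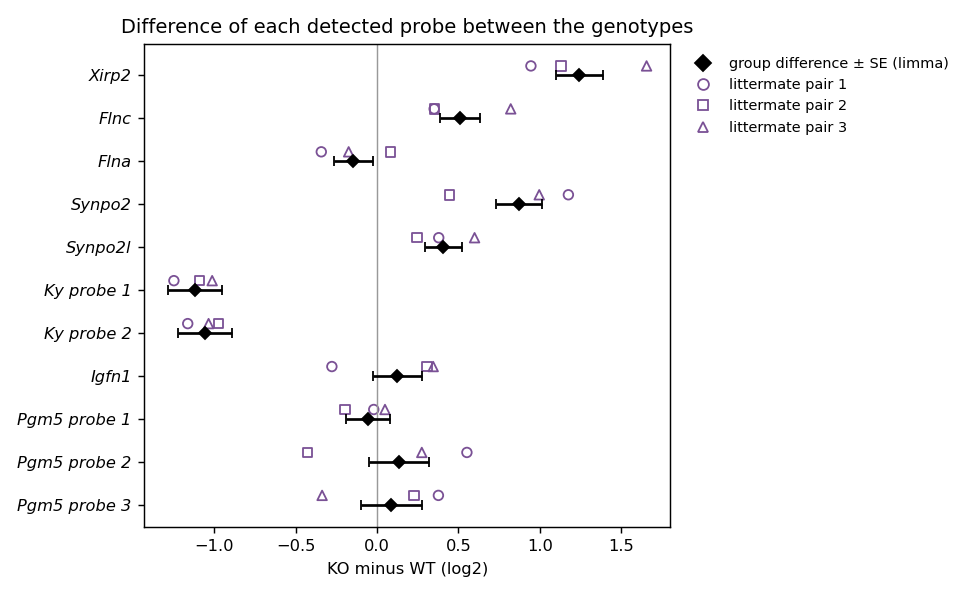
KO minus WT on the log2 scale (horizontal axis) for the 11 detected probes, with black diamonds for the group difference and bars for its limma standard error. Open symbols mark the 3 littermate pairs, as taken from the replicate numbers. The pairs lie between 0.95 and 1.66 for Xirp2 and between -1.25 and -0.97 for both Ky probes, and they straddle 0 for Flna, Igfn1 and each Pgm5 probe.

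Igfn1, a protein of immunoglobulin and fibronectin domains that binds Ky, lay at background. Its probe gave 120.3, 118.1 and 112.1 in WT and 115.4, 122.8 and 120.8 in KO on the scanner's scale, and it was detected on 1 WT and 2 KO arrays, just inside the filter. The log2 difference was 0.13 (SE 0.15, limma adjusted p = 0.936), with a littermate difference of -0.28 in pair 1 and of 0.31 and 0.35 in the others. Without WT 3 the difference was 0.02. A difference in Igfn1 was not detectable at this signal.

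Pgm5, or aciculin, is a phosphoglucomutase relative without that enzyme activity that binds filamin C and Xin at cell junctions. Of its 4 probes 3 were detected on all 6 arrays, and they had differences of -0.06 (SE 0.13), 0.13 (SE 0.18) and 0.09 (SE 0.19), with limma adjusted p-values of 0.972, 0.942 and 0.967 over the probes. The brightest gave 179.6, 212.0 and 198.7 in WT and 179.5, 190.0 and 198.5 in KO on the scanner's scale. The groups overlapped for each probe, and each difference was smaller than its SE. Without WT 3 the differences, in the same order, were -0.085, 0.055 and 0.087.

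Over the 11 detected probes the standard error over beads was 2.17% to 5.58% of the intensity, from 22 to 67 beads. The SD between the mice of a group was 1.82% to 21.1% of the mean, on intensities before normalisation, so that it also holds differences in brightness between whole arrays. For the brighter Ky probe the bead error was at most 3.17%, against a spread between mice of 13.0% in WT and 21.1% in KO. For Xirp2 it was at most 4.95%, against 5.59% in WT and 17.4% in KO.

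Partners of the network had both higher and lower means in KO, with differences from -0.40 to 0.81. Of 29 listed binding partners at the Z-disc and costamere, 25 were tested, 14 had a positive and 11 a negative difference, and the median was 0.03. By limma 0 of them passed in either direction, and without adjustment 4 had a p under 0.05 with a higher and 1 with a lower mean in KO, against 3.89% and 3.37% of all genes. Of the 25, 5 had all KO values above all WT values and 1 had them all below, against 6.93% and 6.42% of all genes. The 2 of the list with the smallest p were Nrap, an actin-anchoring protein of growing myofibrils, and Myot, the filamin-binding Z-disc protein myotilin. Nrap gave 12.12, 12.10 and 11.87 in WT and 12.86, 12.77 and 12.88 in KO, 0.81 higher on average with an SE of 0.11 (limma adjusted p = 0.0529). Myot gave 10.68, 10.91 and 10.60 in WT and 11.40, 11.32 and 11.61 in KO, 0.71 higher on average with an SE of 0.13 (limma adjusted p = 0.139). Both were higher on every KO array than on any WT array, and Nrap passed the test under 5 of 15 alternatives. Among the 5, the fit without background correction and that on the authors' normalised values gave the same difference, 0.794. These Nrap values are of its brightest probe. With the mean of its 3 detected probes the difference was 0.636 (limma adjusted p = 0.207).

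Most genes for the chaperone-assisted turnover of filamin had higher means in KO. Of 12 tested, 9 had a positive difference, the median was 0.21, and 8 had all KO values above all WT values, against the 6.93% of all genes given above. By limma 1 rose, Hspb7, a small muscle chaperone that binds filamin C. It rose 2.82-fold, from 9.38 ± 0.07 to 10.87 ± 0.18 (SD, n = 3 in either group, SE of the difference 0.12, limma adjusted p = 0.00929), and 0 fell. At an unadjusted p under 0.05 these counts were 4 and 0, against 3.89% and 3.37% of all genes. Without WT 1, KO 1 or KO 2 the limma adjusted p of Hspb7 was 0.0653, 0.0598 and 0.0570. Across all alternatives tried for Hspb7 it spanned 0.000824 to 0.0653. The chaperone genes, Hspb7 among them, are known from earlier results of these data. Of 5 paralogues outside the set 3 were tested and 0 passed limma, and without adjustment 1, Pgm1, had a p under 0.05, with a lower mean in KO, as had 3.37% of all genes. Pgm1, the active phosphoglucomutase, had a difference of -0.23 (SE 0.09), and Synpo, synaptopodin, one of -0.06 (SE 0.12).

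**Figure D4:**
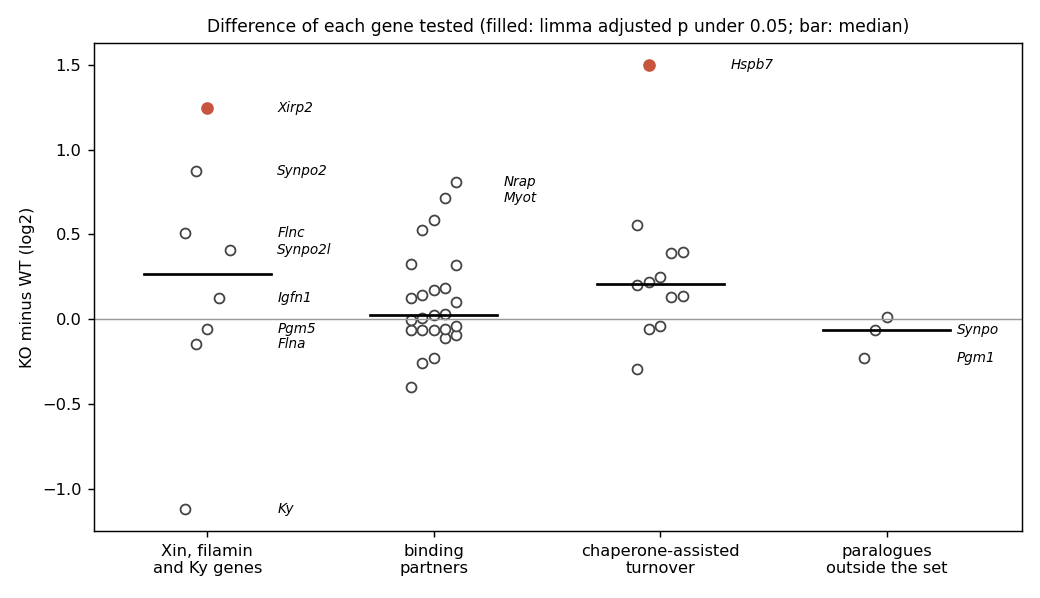
KO minus WT on the log2 scale (vertical axis) for each gene tested in the Xin, filamin and Ky set and in 3 lists of related genes, filled where the limma adjusted p over all genes was under 0.05, with a bar for the list's median. Xirp2 and Hspb7 are filled, Ky lies lowest at -1.12, and the binding partners centre on 0.03.

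Flna, Synpo2 and Pgm5 are also expressed in smooth muscle. In bulk tissue, fewer cells of a type and less RNA per cell cannot be told apart. Of 7 smooth muscle markers 6 were tested and all 6 had a negative difference (median -0.15), with 0 past limma in either direction and 2 of them, Acta2 and Smtn, with a p below 0.05 without adjustment, against 3.37% of all genes with a lower mean. Acta2 had a difference of -0.48 and Smtn one of -0.41, whereas Lmod1, Myh11 and Mylk had -0.09, -0.06 and -0.004. The summed scanner intensity, in which Acta2 is the brightest marker, was 18641 to 19222 in WT and 13921 to 14180 in KO, and the marker Cnn1 was not detected. Fibroblast markers summed to 22041 to 24347 in WT and 21229 to 21652 in KO, over 6 tested of 6, of which 5 had a negative difference. Endothelial markers summed to 5519 to 6709 in WT and 5177 to 5744 in KO, with 6 of 6 differences negative (median -0.10). Macrophage markers summed to 1427 to 1812 in WT and 1271 to 1535 in KO, with all 4 tested of 5 negative (median -0.13). Adipocyte markers summed to 1761, 922 and 6039 on WT 1, WT 2 and WT 3 and to 1128 to 1495 in KO. The WT arrays thus held both the lowest and the highest sum. All 4 tested of 5 had a negative difference (median -0.90), and WT 3 was the highest array for each of them. For Adipoq and Cidec WT 2 lay below every KO array, whereas for Lep every WT array lay above every KO array. By limma 0 markers of these lists passed, and without adjustment 1 fibroblast, 1 macrophage and 1 adipocyte marker had a p under 0.05, each with a lower mean in KO. The part of these markers in the results was not tested.

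The genes whose level followed that of Xirp2 most closely over the 6 arrays were Myh1, the fast IIx myosin heavy chain (Pearson r = 0.997), Pdpk1, a kinase upstream of Akt (0.989), Hspb7 (0.988), Drp2, a dystrophin relative (0.987), and Mustn1, a small musculoskeletal nuclear protein (0.987). They came from 3062 named genes that were detected on all 6 arrays and varied by an SD of at least 0.2. All 5 had higher means in KO, by 0.51 or more, so that each r rests largely on the step between the groups. For Flna the closest were Slc4a1, the anion exchanger of red cells (0.992), Zfyve1 (0.973), Avpr1a, a vasopressin receptor (0.971), Mgat1 (0.950) and Cmtm6 (0.950). The 6 arrays also share the normalisation, and these correlations are a description.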

How the data were processed

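Total RNA of 6 quadriceps was measured, 1 mouse per array. Per the labels' protocols, Trizol was used for extraction and a MessageAmp kit of Ambion for Cy3 cRNA. The sources used here name no scanner or software. The authors deposited, per the file headers, a mean bead intensity per probe and array without normalisation, its standard error over beads, the number of beads and a detection p-value, which moves in steps of 1 in 936. A second deposited table holds 1 intensity per probe and array. Its medians of 112.3 in every column and its r of 1.00 with the same arrays show a linear scale that the authors normalised between arrays, and it served as an alternative.

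Of 45281 probes, 34885 carried 1 gene symbol, 18 several and 10378 none in the platform's annotation. Intensities were processed with neqc of limma 3.58.1 in R 4.3.3 (normexp background correction from the detection p-values, offset of 16, quantile normalisation, log2). Probes with a detection p under 0.05 on at least 3 of 6 arrays were kept, 19099 in all. The brightest stood for its gene, which gave 13455 genes, of which 10493 had a symbol. The genotypes were compared by two-sided limma fits (lmFit, eBayes), and p-values were adjusted by Benjamini-Hochberg over all genes or, for single probes, all detected probes, with a threshold of 0.05. On simulated data of 13455 genes for this comparison, the fit called 74 of 100 genes changed by 1 on the log2 scale. It called 91 of 100 changed by 2. The whole simulation, which held both sizes, gave 5 false calls. The simulated noise was independent between arrays, and 100 genes of each size were changed, whereas limma called 20 genes in the data. The adjusted threshold was therefore looser in the simulation, and these counts do not give the power for the data. With 3 arrays per group, the number of arrays limits the precision.

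Replicate numbers come from the sample titles. The design text pairs littermates without naming the numbers. Deviations from the group means had an r of 0.33, 0.22 and 0.46 for arrays of the same number. For arrays of different numbers it was -0.41 to 0.24, the highest being WT 2 with KO 1. Deviations from a mean of 3 arrays cancel out within a group, so these r are not independent of each other. The numbers were taken as pairs and entered as a block in an alternative. Members and lists were chosen with earlier results of these data known. Named were all members, Klhl40, up to 4 called genes of each related list or the 2 with the smallest p, and the 5 genes closest to Xirp2 and to Flna. Promoter windows came from RefSeq, and all 8 genes with a probe matched by symbol. Other alternatives were no background correction (and so no offset), median centring, an offset of 50, no filter and a detection p under 0.01. The mean of a gene's probes, eBayes with trend and robust settings, and leaving out each array were also run.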

Additional observations from a re-analysis of the deposited data

How the results depend on the processing

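No result of Xirp2, Flnc, Flna, Synpo2, Synpo2l, Igfn1 or either Ky probe changed direction under any alternative run. Differences lay between 1.11 and 1.32 for Xirp2, 0.40 and 0.57 for Flnc, 0.59 and 0.98 for Synpo2, 0.33 and 0.47 for Synpo2l, -1.27 and -1.01 for Ky and -0.24 and -0.05 for Flna. Igfn1 gave no value at a detection p under 0.01, where it was not kept. Pgm5, near 0, turned to 0.056 with the mean of its probes and lay between -0.143 and 0.061 without each array in turn, and its dimmest detected probe lay between -0.044 and 0.304. Without the filter 0 members were called, with more probes tested, 0 member probes and 1 gene in all. With the replicate block 0 members were higher and 1, Ky, lower, with 3 member probes called, and the block changed no other call of a member. An offset of 50 called 1 member lower (Ky) and 2 member probes, and trend and robust eBayes called 1 lower (Ky) and 4 probes. Over all genes, the 20 called became 31 without background correction, 31 with an offset of 50, 31 in the authors' table and 44 with trend and robust eBayes. The cause was not tested. The authors' table and the setting without background correction gave nearly the same differences (1.111 and 1.112 for Xirp2, -1.062 in both for Ky). They therefore do not count as separate agreement. Without each array in turn, 0 to 1 members were called higher, 0 lower, 0 to 1 member probes and 1 to 24 genes in all. The call of Xirp2 held without WT 3 and was lost without each of the other 5 arrays. Of the binding partners 1 to 3 passed under 5 alternatives, Nrap in each and 3 with trend and robust eBayes, and Hspb7 was not called without the filter. Synpo, near 0, lay between -0.135 and 0.022 without each array in turn. The limit for Igfn1 and for the undetected probes is signal over background.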
